A study of Mus musculus with 6 samples.

Results

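The genes described here are the ligands and receptors of the epidermal growth factor receptor (EGFR) family, in RNA of sorted mouse prostate luminal cells. They were taken by symbol and comprise 6 ligand genes (Egf, Tgfa, Areg, Ereg, Hbegf and Btc), 3 receptor genes (Egfr, Erbb2 and Erbb3) and Errfi1, the gene of an inhibitor of these receptors. These 10 genes, all present in the files, stand among 24346 gene symbols. The transgenic mice carried mouse Csf1, the gene of a macrophage growth factor, driven by the promoter of rat probasin, a gene that prostate luminal cells express under androgen. They were C57BL/6 mice of 4 months and are called CSF1 here, and wild-type littermates of the same strain and age are called WT. Each group had 3 libraries, numbered 3, 5 and 8 in both groups. The labels give neither the sort markers nor the meaning of the numbers, and nothing says that the libraries came from separate animals, so the p-values cover the spread among these 6 libraries, which may be technical.

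Ligands of this family are made as membrane-anchored precursors, and metalloproteases such as ADAM17 and ADAM10 release them from the cell surface. EGF, TGF-alpha and amphiregulin (Areg) bind EGFR, whereas heparin-binding EGF-like growth factor (Hbegf), betacellulin (Btc) and epiregulin (Ereg) bind EGFR and ERBB4. ERBB2 has no known ligand and pairs with the other receptors, and ERBB3 has little kinase activity of its own and signals through its partners. Active receptors drive the ERK cascade in epithelial cells, and ERRFI1 (also called MIG6) is a feedback protein that binds and blocks the EGFR kinase domain.

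Levels are given as FPKM, in which fragments are scaled to transcript length and to library size, which allows levels of different genes to be set side by side. The number of genes over 1 FPKM ran from 9926 to 10089 per WT library and from 11102 to 11231 per CSF1 library. The CSF1 libraries were also the deeper ones, at a coverage per FPKM of 4.17 to 5.01 against 2.72 to 3.50 for WT. Csf1 itself had a mean of 2.59 ± 1.25 FPKM in WT and 1362 ± 299.97 FPKM in CSF1 (SD, n = 3 per group). Luminal markers were present in every library. Their sum over 10 genes was 10451 to 29691 FPKM in WT and 8213 to 16722 FPKM in CSF1. Most of this luminal sum came from Pbsn, the mouse probasin gene, named after its value was seen. Its mean was 13268 FPKM in WT and 7372 FPKM in CSF1, against 18239 and 12830 FPKM for the sum. The summed markers of each other cell type were higher in every CSF1 library than in any WT library. The sum of 12 macrophage markers was 19.2, 26.6 and 112 FPKM in WT libraries 3, 5 and 8 and 757, 941 and 3069 FPKM in CSF1 libraries 3, 5 and 8. The sum of 10 basal cell markers was 66.0 to 81.0 FPKM in WT and 559 to 876 FPKM in CSF1. That of 11 stromal markers was 98.0 to 114 FPKM in WT and 512 to 758 FPKM in CSF1. Most of the stromal sum came from Dcn, named after its value was seen. Its mean was 95.2 FPKM in WT and 457 FPKM in CSF1, against 105 and 629 FPKM for the sum. The sum of 7 endothelial markers was 1.08 to 3.48 FPKM in WT and 12.4 to 17.1 FPKM in CSF1, and that of 8 lymphocyte markers was 0.446 to 1.12 FPKM in WT and 7.34 to 24.7 FPKM in CSF1. In the lists of macrophage, basal, stromal, endothelial and lymphocyte markers, 12 of 12, 8 of 9, 9 of 9, 3 of 3 and 2 of 2 tested genes rose, and of the luminal markers 3 of 10 rose and 1 fell. In the 5 lists other than the luminal one 5, 2, 6, 3 and 2 of the tested genes had WT means below 1 FPKM and were tested only through their CSF1 levels, so their calls were favoured by the filter. No luminal, macrophage, basal, stromal or endothelial marker was at 0 in all WT libraries, while the lymphocyte marker Ms4a1 was, and no marker of these lists was at 0 in all CSF1 libraries. Several of these cells can make EGFR family ligands, and their part in the results below was not tested. CSF1 library 8 stood apart by its macrophage markers, so the changes of the tested members without it are given beside their results. Of the list genes that rose or fell and are named below, Egr3, Nrg1, Rhbdf2 and Spry2 lost their calls without it, and Spry4 was then too low to be tested. In RNA of whole sorted samples, fewer cells of a type and less RNA per cell cannot be told apart.

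Of the 10 genes, 7 rose in CSF1 (Tgfa, Areg, Hbegf, Btc, Egfr, Erbb2 and Errfi1), none fell, 2 did not pass the test (Egf and Erbb3) and 1 (Ereg) was too low to be tested. The test was limma's moderated statistic on log2(FPKM + 1) over the 10951 genes whose mean over all libraries reached 1 FPKM, with a Benjamini-Hochberg adjusted p of 0.05 as the threshold. Log2 changes on this scale understate the change of genes with low values. Of all genes tested, 32.4% were called by the same rule, 24.9% as higher and 7.47% as lower. Areg and Btc had WT means below 1 FPKM and entered the test only through their CSF1 levels. With no filter on low values, 7 of the 10 genes also rose, beside 16.2% of 17920 genes. By limma, none of the 9 tested genes was lower at an unadjusted p of 0.05, and 8 were higher. The share of all tested genes at this unadjusted threshold was not taken. This count and the unadjusted counts of the lists below therefore have no background. Over all tested genes the median log2 change stood at 0.17. Quantile normalization moved this to -0.16, median-ratio scaling to -0.01, and it was 0.00282 when each library was rescaled without its 5 most abundant genes. The higher calls made up 77.0% of all calls without rescaling, and 41.8%, 55.7% and 59.7% under these scalings. Tgfa, Areg, Btc, Egfr and Errfi1 remained higher under each of these scalings, whereas Hbegf and Erbb2 did not pass under any of them. Without CSF1 library 8, the same 7 genes passed, where 2383 of all genes were called higher.

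**Figure D1:**
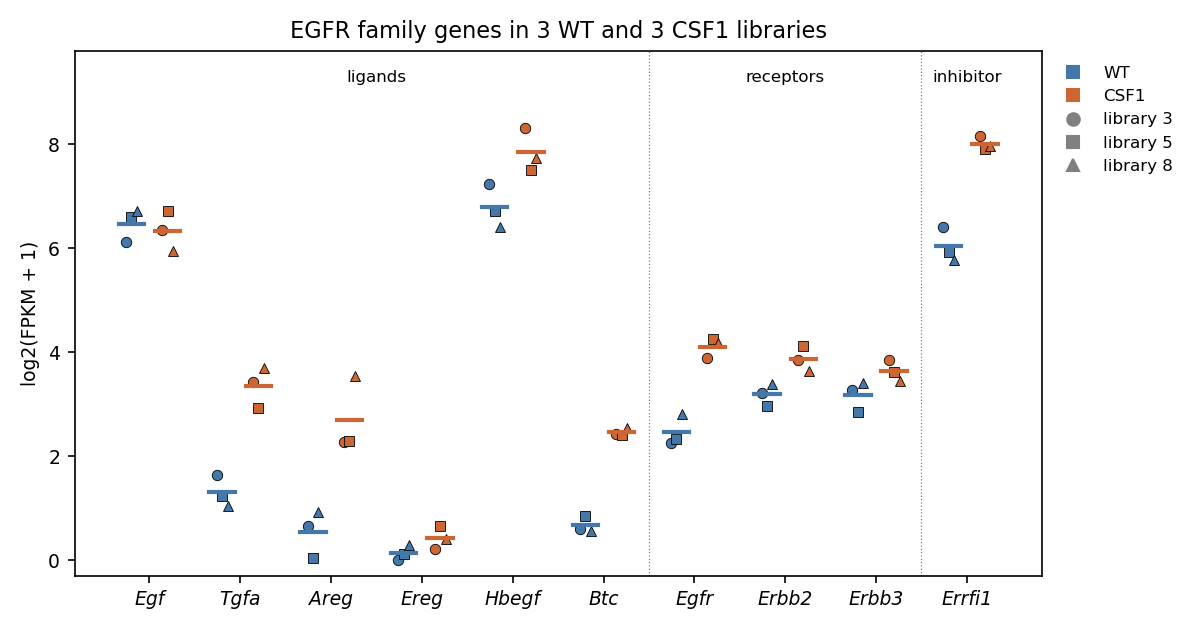
Levels of the 10 genes as log2(FPKM + 1) in 3 WT (blue) and 3 CSF1 (orange) libraries, with a symbol for each library number and a bar at the group mean. Tgfa, Areg, Btc, Hbegf, the 3 receptor genes and Errfi1 have no overlap between the groups, while Egf and Ereg overlap. Of all tested genes, 47.7% had no overlap, and 34.7% had none with CSF1 as the higher group.

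Among the ligands, Tgfa encodes transforming growth factor alpha, a ligand that many epithelia make for their own EGFR. Tgfa was at 2.09, 1.37 and 1.06 FPKM in WT libraries 3, 5 and 8 and at 9.73, 6.57 and 11.96 FPKM in CSF1 libraries 3, 5 and 8. Its lowest CSF1 library lay above its highest WT library. The mean rose 6.25-fold, and log2(FPKM + 1) rose by 2.04 with an SE of 0.25 (limma adjusted p = 0.000509). Without CSF1 library 8 the log2 change was 1.87 (limma adjusted p = 0.00108).

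Areg encodes amphiregulin, a ligand made by epithelia and by several immune cells. Areg was at 0.572, 0.0290 and 0.896 FPKM in WT libraries 3, 5 and 8 and at 3.82, 3.91 and 10.6 FPKM in CSF1. The groups did not overlap, and CSF1 library 8, which also had the highest sum of macrophage markers, was the highest. The log2 change was 2.16 with an SE of 0.38 (limma adjusted p = 0.00309), the largest of the tested members with all libraries and a pseudocount of 1, and the mean was 12.2-fold higher. That fold was 7.75 without CSF1 library 8 and 20.3 without WT library 8. Without CSF1 library 8 the log2 change was 1.74 (limma adjusted p = 0.00279), below those of Errfi1, Tgfa and Btc, and with a pseudocount of 5 it was 0.96 against 1.91 for Errfi1. Areg lies at 91139615 to 91148432 on chromosome 5 (GRCm38, the genome called mm10 in the submitters' notes), and no exon of another annotated gene overlaps its exons.

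Btc encodes betacellulin. Btc was at 0.518, 0.794 and 0.470 FPKM in WT libraries 3, 5 and 8 and at 4.37, 4.33 and 4.80 FPKM in CSF1. The CSF1 libraries were close to each other and all lay above WT. The mean rose 7.57-fold, and log2(FPKM + 1) rose by 1.79 with an SE of 0.19 (limma adjusted p = 0.000220), and the log2 change was 1.75 without CSF1 library 8. Its spread in CSF1, 4.50 ± 0.261 FPKM (SD, n = 3), was far narrower than that of Areg, 6.10 ± 3.87 FPKM.

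Hbegf was the most abundant ligand gene on average in both groups. Hbegf was at 151, 104 and 84.0 FPKM in WT libraries 3, 5 and 8 and at 315, 182 and 213 FPKM in CSF1. The groups did not overlap, and library 3 was the highest within each group. The mean rose 2.10-fold, and log2(FPKM + 1) rose by 1.06 with an SE of 0.26 (limma adjusted p = 0.0136). The call was near the threshold. It was lost without WT library 5 (adjusted p = 0.0521) and without WT library 8 (0.0504), and it held without CSF1 library 8 (log2 change 1.12, adjusted p = 0.0235). The log2 change was 0.88, 0.86 and 0.87 after quantile normalization, median-ratio scaling and FPKM rescaled outside the 5 most abundant genes, with limma adjusted p-values of 0.0517, 0.0525 and 0.0537.

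Egf encodes the founding ligand of the family, which is abundant in several secretory glands and their fluids. Egf was at 68.3, 96.0 and 104 FPKM in WT libraries 3, 5 and 8 and at 80.3, 105 and 60.3 FPKM in CSF1. The groups overlapped, with the lowest and the highest values both in CSF1. The log2 change was -0.14 with an SE of 0.23 (limma adjusted p = 0.686). It was 0.0592 without CSF1 library 8 (adjusted p = 0.865). Exons of a pair of antisense genes share 500 and 607 bases with those of Egf, and reads of opposite strands are not separated in these libraries. Tgfa, Ereg and Erbb2 share fewer, 118, 141 and 9 exonic bases, with a gene on the other strand. How much such reads add to any of these levels was not tested.

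Ereg encodes epiregulin and was barely detected. Ereg was listed at 0 in WT library 3, at 0.0801 and 0.216 FPKM in WT libraries 5 and 8, and at 0.153, 0.570 and 0.333 FPKM in CSF1 libraries 3, 5 and 8. The groups overlapped. Fitted with no filter on low values, its log2 change was 0.29 with an SE of 0.13 (limma adjusted p = 0.180).

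The makeup of the ligand pool is given as each ligand's share of the summed FPKM of the 6 genes. This sum was 222, 202 and 190 FPKM in WT libraries 3, 5 and 8 and 414, 301 and 301 FPKM in CSF1. Every CSF1 library lay above every WT library (exact two-sided permutation p = 0.1, the smallest that 3 libraries against 3 allow). Hbegf and Egf together held nearly all of it in both groups. Hbegf held 54.4% ± 12.1 in WT and 69.1% ± 8.13 in CSF1 (SD, n = 3 each), and Egf held 44.2% ± 12.2 and 24.7% ± 8.63. Both shares overlapped between the groups (exact permutation p = 0.2 for each, adjusted p = 0.24 over the 6 ligands). Tgfa, Btc and Areg took larger shares in CSF1 with no overlap, whereas the shares of Ereg overlapped (exact permutation p = 0.5). Tgfa held 0.725% ± 0.196 in WT and 2.84% ± 0.994 in CSF1, Btc 0.291% ± 0.0884 and 1.36% ± 0.278, and Areg 0.248% ± 0.229 and 1.91% ± 1.40. For Tgfa, Btc and Areg the exact permutation p was 0.1 (0.2 adjusted over the 6). The difference in the Areg share, 1.66 percentage points, was 0.863 without CSF1 library 8. That of the Hbegf share, 14.6 percentage points, was 9.46 without WT library 8. Tgfa, Areg, Btc and Ereg together summed to 3.18, 2.27 and 2.64 FPKM in WT libraries 3, 5 and 8 and to 18.1, 15.4 and 27.7 FPKM in CSF1.

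**Figure D2:**
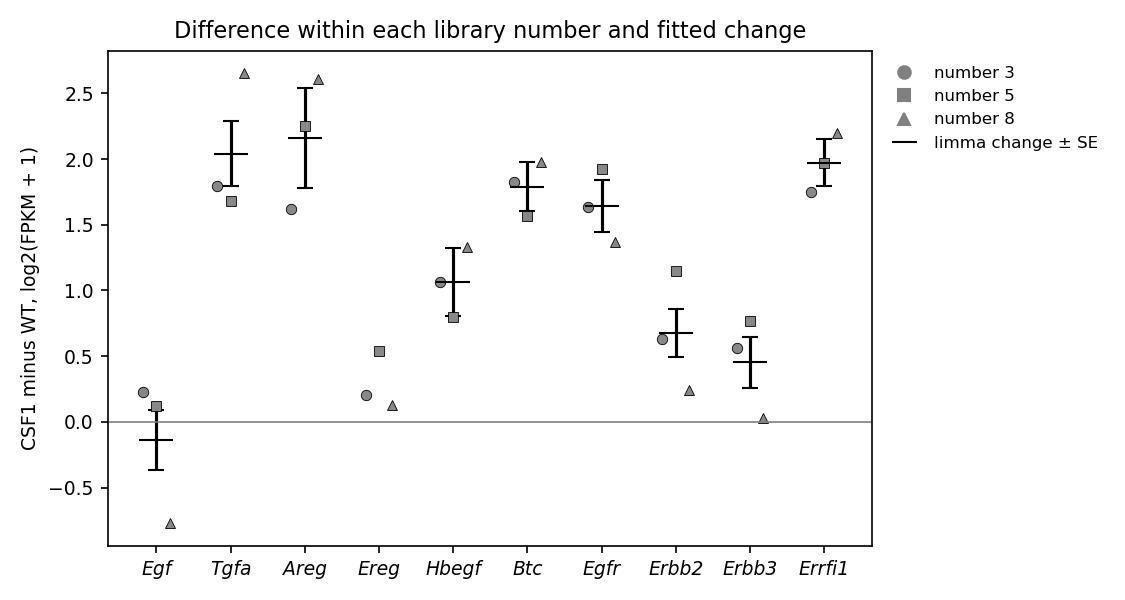
CSF1 minus WT in log2(FPKM + 1) for each library number (grey symbols), with limma's fitted change and its SE (black) for the 9 tested genes. Tgfa, Areg, Btc, Egfr and Errfi1 were more than 1 unit higher in CSF1 within each number, and for Egf number 8 lay at -0.77.

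Among the receptors, Egfr, which binds all 6 ligands, changed most. Egfr was at 3.76, 4.01 and 6.04 FPKM in WT libraries 3, 5 and 8 and at 13.8, 18.02 and 17.2 FPKM in CSF1. The groups were well apart. The mean rose 3.55-fold, and log2(FPKM + 1) rose by 1.64 with an SE of 0.20 (limma adjusted p = 0.000469), and the log2 change was 1.61 without CSF1 library 8. The differences within numbers 3, 5 and 8 were 1.64, 1.92 and 1.37 log2 units.

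Erbb2, the shared partner receptor, was at 8.33, 6.83 and 9.54 FPKM in WT libraries 3, 5 and 8 and at 13.5, 16.4 and 11.5 FPKM in CSF1. The groups did not overlap, but within number 8 the difference was only 0.24 log2 units, against 0.63 and 1.15 within numbers 3 and 5. The log2 change was 0.67 with an SE of 0.18 (limma adjusted p = 0.0230). Without CSF1 library 8 it was 0.79 (adjusted p = 0.0175). The call was lost without WT library 3 (adjusted p = 0.0514), WT library 5 (0.0934), CSF1 library 3 (0.0573) or CSF1 library 5 (0.0830). The log2 change was 0.35, 0.48 and 0.50 after quantile normalization, median-ratio scaling and rescaling outside the 5 most abundant genes (limma adjusted p = 0.128, 0.0562 and 0.0845).

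Erbb3, the receptor with a weak kinase, was at 8.70, 6.23 and 9.64 FPKM in WT libraries 3, 5 and 8 and at 13.4, 11.3 and 9.89 FPKM in CSF1. The lowest CSF1 library lay just above the highest WT library. The log2 change was 0.46 with an SE of 0.19 (limma adjusted p = 0.109) and did not pass, nor without CSF1 library 8 (0.55, adjusted p = 0.0892), although it passed with libraries weighted by their quality (0.66, adjusted p = 0.0197). All 3 receptor genes had groups that did not overlap, which held for 47.7% of all tested genes, and for 34.7% with CSF1 as the higher group.

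The order of the receptors by level differed between the groups. In WT, Erbb2 and Erbb3 overlapped each other, and both lay above Egfr in every library. In CSF1 Egfr had the highest mean (16.3 FPKM, against 13.8 for Erbb2 and 11.5 for Erbb3), and neighbours in this order overlapped. Egfr held 18.1%, 23.5% and 23.9% of the summed FPKM of the 3 receptors in WT libraries 3, 5 and 8 and 34.0%, 39.4% and 44.6% in CSF1 (exact permutation p = 0.1). The receptor sum was 20.8, 17.1 and 25.2 FPKM in WT and 40.6, 45.7 and 38.5 FPKM in CSF1.

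The files list a short and a long Egfr transcript, at 16752203 to 16913907 on the plus strand of chromosome 11. The long transcript, NM_207655, has 28 exons and 3630 coding bases before the stop codon in the annotation and encodes the whole receptor. The short transcript, NM_007912, has 16 exons and 1965 coding bases, so its product ends before the kinase domain. They share their first 1925 coding bases. The point where they part is shown because the measured change differed between them. In each line the lower-case bases are the last 30 shared coding bases (chr11:16887156-16887185, GRCm38, plus strand), and the capitals are the next 30 coding bases of that transcript, at chr11:16887186-16887215 for the short and chr11:16889913-16889942 for the long transcript.
Egfr short: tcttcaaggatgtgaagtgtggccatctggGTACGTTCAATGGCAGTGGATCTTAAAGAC
Egfr long: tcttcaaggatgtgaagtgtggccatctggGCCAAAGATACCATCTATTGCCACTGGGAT

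The short form reads on past the last shared exon for 40 coding bases in all, whereas the long form is spliced to the next exon. The long transcript was at 1.61, 1.23 and 1.53 FPKM in WT libraries 3, 5 and 8 and at 6.87, 9.61 and 10.5 FPKM in CSF1. It rose 6.17-fold in mean, and log2(FPKM + 1) rose by 2.01 with an SE of 0.20 (limma over 12785 transcripts, adjusted p = 0.000686). The short transcript was at 2.14, 2.77 and 4.51 FPKM in WT against 6.94, 8.40 and 6.62 FPKM in CSF1. It rose 2.33-fold in mean, and log2(FPKM + 1) rose by 1.04 with an SE of 0.24 (limma adjusted p = 0.0183), where 25.5% of all tested transcripts were called and 19.7% rose. The call on the short transcript was lost without WT library 5 (adjusted p = 0.0644) or CSF1 library 5 (0.0649).

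The short form was thus the more abundant in each WT library, and the long form in CSF1 libraries 5 and 8, while in CSF1 library 3 they were nearly equal. The long transcript's share of Egfr FPKM was 43.0%, 30.8% and 25.3% in WT libraries 3, 5 and 8 and 49.7%, 53.4% and 61.4% in CSF1. The groups did not overlap (exact two-sided permutation p = 0.1, the smallest possible here). The share differed by 6.76, 22.6 and 36.1 percentage points within numbers 3, 5 and 8. Cufflinks divides reads of shared exons between transcripts by a model, so these shares rest on the reads that tell the forms apart, whose number is not given.

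**Figure D3:**
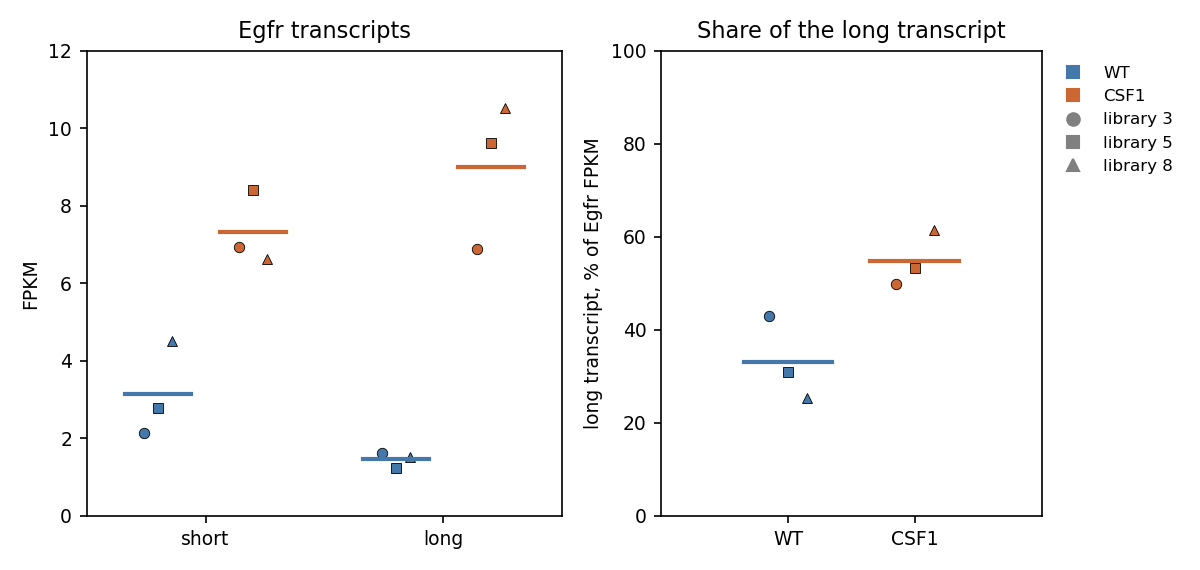
FPKM of the short and long Egfr transcripts (left) and the long transcript's percentage of their sum (right) in 3 WT and 3 CSF1 libraries, with bars at group means. The long transcript's share lies between 25.3% and 43.0% in WT and between 49.7% and 61.4% in CSF1.

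Errfi1, the feedback inhibitor, had the smallest limma p-value of the 9 tested genes. With no filter on low values, Btc had the smaller limma p-value (3.70e-05 against 3.86e-05 for Errfi1, unadjusted). Errfi1 was at 84.4, 60.2 and 53.7 FPKM in WT libraries 3, 5 and 8 and at 285, 239 and 249.8 FPKM in CSF1. All CSF1 libraries lay far above the highest WT library. The mean rose 3.90-fold, and log2(FPKM + 1) rose by 1.97 with an SE of 0.18 (limma adjusted p = 0.000116), and the change was 1.99 without CSF1 library 8. The log2 differences within numbers 3, 5 and 8 were 1.75, 1.97 and 2.20. By mean FPKM Errfi1 came after Hbegf and Egf in WT and was the highest of the 10 genes in CSF1, although its range overlapped that of Egf in WT and that of Hbegf in CSF1.

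Promoters were looked up in RefSeq (GRCm38.p6), which gave 9 start sites for 7 genes. Hbegf was not looked up, and Ereg and Erbb3 were not matched. The 250 bases before each start were searched for the cAMP response element TGACGTCA and the AP-1 site TGANTCA on both strands. The response element stood in the windows of Areg and of the downstream start of Errfi1, and in no other window of these genes. It is held by 1.55% of 32851 RefSeq windows of this length. No window of the 7 genes held the AP-1 letters, which 6.75% of all windows hold. The windows that hold a match are shown because both genes rose, with the match in capitals, 5′ to 3′ on the plus strand. The match ends 54 bases before the start of Areg (chr5:91139349-91139598) and 44 bases before that of Errfi1 (chr4:150854820-150855069).
Areg: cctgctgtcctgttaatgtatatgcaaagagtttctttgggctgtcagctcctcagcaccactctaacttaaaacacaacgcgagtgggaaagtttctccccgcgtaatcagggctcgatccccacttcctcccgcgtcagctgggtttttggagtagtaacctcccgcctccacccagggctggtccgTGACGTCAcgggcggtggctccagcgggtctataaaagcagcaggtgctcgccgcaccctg
Errfi1: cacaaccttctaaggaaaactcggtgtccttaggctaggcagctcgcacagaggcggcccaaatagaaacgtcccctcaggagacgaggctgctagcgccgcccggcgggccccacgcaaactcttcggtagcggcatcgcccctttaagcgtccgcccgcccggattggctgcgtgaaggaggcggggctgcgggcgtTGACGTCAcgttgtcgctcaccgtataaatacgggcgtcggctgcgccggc

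A match describes the letters in the window and does not show that a factor binds there.

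The remaining ligands and the remaining receptor of the family were low. Erbb4, the receptor that Hbegf, Btc and Ereg also bind, was at 1.31, 1.03 and 0.955 FPKM in WT libraries 3, 5 and 8 and at 0.960, 0.7998 and 0.408 FPKM in CSF1. Its mean was below 1 FPKM over all libraries, so it was not tested, and the groups overlapped at their edge. Nrg1, which encodes the neuregulin ligand of ERBB3 and ERBB4, was at 0.663, 1.03 and 1.21 FPKM in WT against 2.48, 1.81 and 1.92 FPKM in CSF1. It rose by a log2 change of 0.65 with an SE of 0.21 (limma adjusted p = 0.0469). Its WT mean lay below 1 FPKM, and this call did not hold with the library numbers as a block (adjusted p = 0.0753) or without any single library (0.0604 to 0.141). Epgn reached 0.230 FPKM in CSF1 library 8 and was otherwise at or near 0, and Nrg3 and Nrg4 were listed at 0 in all 6 libraries. Nrg2 was at 0.204, 0.0982 and 0.0141 FPKM in WT against 1.14, 0.916 and 0.262 FPKM in CSF1, with no overlap, but its mean was too low to be tested.

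Genes that release, move or protect ligand precursors rose in part. Of 12 listed, 10 were tested, 7 rose, none fell and 3 did not pass, with none lower at an unadjusted p of 0.05 by limma. With quantile normalization, median-ratio scaling, rescaling outside the 5 most abundant genes or array weights, 1 of them fell. Their median log2 change was 1.16, beside 0.17 for all tested genes, of which 24.9% rose. The genes that rose include Timp3, an inhibitor of ADAM17 and ADAM10 (log2 change 1.39, limma adjusted p = 0.000338), named after its value was seen. Adam17, the main sheddase of Tgfa, Areg and Hbegf precursors, was at 1.59, 1.68 and 2.86 FPKM in WT libraries 3, 5 and 8 and at 6.63, 8.42 and 9.41 FPKM in CSF1 (log2 change 1.60, limma adjusted p = 0.000866). Adam10, which sheds Egf and Btc precursors, was at 10.3, 9.78 and 13.0 FPKM in WT against 24.3, 26.8 and 24.6 FPKM in CSF1 (log2 change 1.13, limma adjusted p = 0.000806). Both proteases lay above WT in every CSF1 library. The iRhom proteins bring ADAM17 to the cell surface. Rhbdf1, the gene of iRhom1, rose from 12.8 ± 3.68 to 35.3 ± 1.42 FPKM (by 1.42 on the log2 scale, limma adjusted p = 0.000796). Rhbdf2, the gene of iRhom2, was at 7.35 ± 1.94 FPKM in WT and 13.8 ± 5.05 FPKM in CSF1 (log2 change 0.81, limma adjusted p = 0.0456), and the call was lost without WT library 3 or 5 or CSF1 library 5 or 8 (adjusted p = 0.134, 0.122, 0.0626 and 0.108). Adam8, a protease of myeloid cells among others, was at 0.0108, 0.236 and 0.773 FPKM in WT against 2.98, 5.39 and 18.1 FPKM in CSF1, highest in the library with the most macrophage marker RNA (log2 change 2.59, limma adjusted p = 0.00576). Without that library the log2 change was 1.95. Adam8 was tested only through its CSF1 level, and with no filter on low values its adjusted p was 0.0309.

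Of 18 listed genes of receptor restraint and endocytosis, 17 were tested, 9 rose, none fell and 8 did not pass, with a median log2 change of 0.53, where 24.9% of all tested genes rose with a median of 0.17. None was lower at an unadjusted p of 0.05 by limma. With quantile normalization 5 rose and 1 fell, where 1694 of all tested genes rose and 2362 fell. Sh3kbp1, an adaptor of the ubiquitin ligase CBL in receptor endocytosis, rose from 0.267 ± 0.132 to 4.14 ± 0.580 FPKM (by 2.02 on the log2 scale, limma adjusted p = 0.000182). Ptpn1, which encodes the tyrosine phosphatase PTP1B, rose from 12.6 ± 0.220 to 36.6 ± 8.20 FPKM (log2 change 1.45). Lrig1, which encodes a membrane inhibitor of the EGFR family, rose from 0.288 ± 0.111 to 2.07 ± 0.694 FPKM (by 1.23 on the log2 scale, limma adjusted p = 0.00523), and with quantile normalization it did not pass (adjusted p = 0.0772). Sh3kbp1 and Lrig1 were tested only through their CSF1 levels, and with no filter their adjusted p-values were 0.00175 and 0.00995.

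Few genes that relay the signal from receptor to ERK and AKT passed the test. Of 30 listed and tested, 4 rose, none fell and 26 did not pass, and the median log2 change was 0.26. This share lies below the 24.9% of all genes that rose. With the library numbers as a block 8 rose, where 2883 of the 10951 tested genes rose. With array weights 8 also rose, beside 3277 of all tested genes, and with quantile normalization 1 rose, beside 1694. At an unadjusted p of 0.05 by limma 11 were higher and none was lower, with no share of all genes taken at that threshold. With median-ratio scaling 2 fell, where 1675 of all tested genes fell. Vav2, a guanine nucleotide exchange factor gene, rose from 0.775 ± 0.447 to 2.70 ± 0.473 FPKM (by 1.08 on the log2 scale, limma adjusted p = 0.0105). Pik3r1, a regulatory subunit of PI3 kinase, rose from 3.01 ± 0.106 to 5.72 ± 0.895 FPKM (log2 change 0.74). Vav2 and Pik3r1 did not pass with quantile normalization (adjusted p = 0.0918 and 0.122), and Vav2 was tested only through its CSF1 level.

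Of 22 genes known to respond to ERK signalling, 20 were tested, 14 rose, 1 fell and 5 did not pass, with a median log2 change of 0.90, where 24.9% of all tested genes rose and 7.47% fell. Of the 14, Dusp4, Spry4 and Egr3 were tested only through their CSF1 levels. With no filter on low values 13 of the listed genes rose, where 16.2% of 17920 genes rose. Egr3, Spry1 and Spry2 then did not pass (limma adjusted p = 0.0955, 0.0670 and 0.0832), so the 13 include genes not called with the filter. The genes of this paragraph other than Dusp6, Dusp4 and Ier3 were named after their values were seen. Dusp6, a phosphatase that switches off ERK and is induced by it, was at 6.43, 4.65 and 5.56 FPKM in WT libraries 3, 5 and 8 and at 75.9, 63.0 and 83.0 FPKM in CSF1 (log2 change 3.52 ± 0.17, SE; limma adjusted p = 5.49e-06). Dusp4, a nuclear phosphatase of the same family, was at 0.0991, 0.116 and 0.432 FPKM in WT against 5.61, 7.52 and 6.05 FPKM in CSF1 (log2 change 2.61, limma adjusted p = 6.14e-05). Ier3, an immediate early gene, rose from 94.2 ± 16.3 to 569.9 ± 153 FPKM (log2 change 2.57). The gene that fell was Atf3, a stress-responsive transcription factor gene, named after its value was seen, at 1664 ± 26.7 FPKM in WT and 1126 ± 143 FPKM in CSF1 (log2 change -0.57, limma adjusted p = 0.0120). Its call was lost without WT library 5 or CSF1 library 5 (adjusted p = 0.0559 and 0.0583) and with no filter on low values (0.0628). Many of these genes also respond to inflammatory and stress signals, and which signal they followed was not tested.

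**Figure D4:**
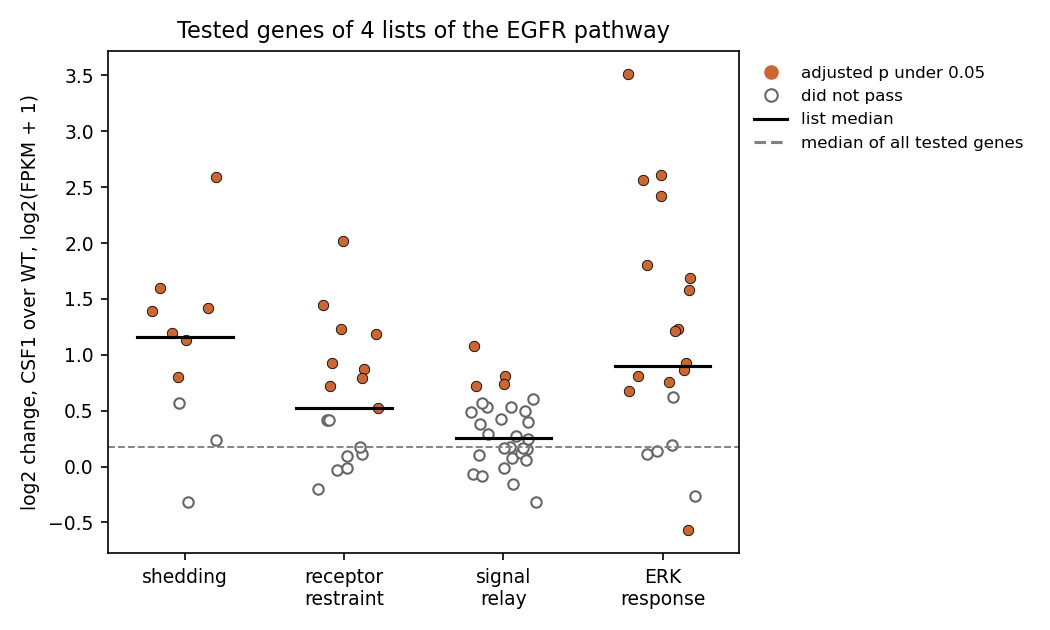
Log2 change of CSF1 over WT on the log2(FPKM + 1) scale for each tested gene of 4 lists, filled where the limma adjusted p was under 0.05, with list medians (black lines) and the median of all tested genes (dashed). The medians are 1.16, 0.53, 0.26 and 0.90 from left to right, beside 0.17 for all genes.

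Epgn, Ereg, Areg and Btc lie near each other on chromosome 5, next to a cluster of CXC chemokine genes. Within 500 kb of Ereg and Areg the files list 16 genes, of which 11 were tested, 7 rose and 1 fell, where 24.9% of all tested genes rose and 7.47% fell. Those that rose were Areg and Btc themselves, Cxcl1, Cxcl2, Cxcl3, Cxcl5 and Pf4. The window was set around Areg and Ereg, so the rise of Areg itself is part of the count. Areg, Btc and Cxcl5 (WT mean 0.176 FPKM) were tested only through their CSF1 levels, which favoured their calls. Cxcl1, a neutrophil-attracting chemokine gene at 90891245 to 90893115, rose from 28.9 ± 12.3 to 393 ± 202 FPKM (by 3.68 on the log2 scale, limma adjusted p = 0.000195). Mthfd2l, between the chemokine genes and Epgn, was at 3.27 ± 1.14 FPKM in WT and 2.41 ± 0.557 FPKM in CSF1 (log2 change -0.31, limma adjusted p = 0.367). Parm1, on the far side of Btc, was at 42.3 ± 8.70 FPKM in WT and fell to 18.7 ± 0.545 FPKM in CSF1 (log2 change -1.12, limma adjusted p = 0.00135). Neighbours in the cluster therefore differed in level and direction, with Epgn and Ereg near 0 beside Areg and Btc.

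The tested genes whose pattern was most like that of Areg over the 6 libraries were Ube2b, Ttc39b and 1110007C09Rik, with Pearson's r of 0.998, 0.998 and 0.997 in log2(FPKM + 1). They were the highest among the 10951 genes searched. The 6 points fall into the 2 groups and share their libraries, so the values are a description only.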

How the data were processed

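RNA of sorted prostate luminal cells was sequenced after SMART-Seq v4 cDNA synthesis, per the labels' protocols, in 3 WT and 3 CSF1 libraries. Per the submitters' processing notes, bcl2fastq 1.8.3, TopHat and Cufflinks were used with mm10; no version of the aligner or of Cufflinks is given in the sources here. The authors deposited FPKM, with interval bounds in FPKM, for 34535 RefSeq transcripts per library. Their coverage, a deposited signal of mean depth per transcript, was used only to compare depth between libraries. Fragment totals are not given, so no counting error can be stated. Neither named library kit marks strand.

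FPKM was summed over transcripts of a gene symbol. Of all genes, 9 had an estimate marked as failed in some library and were not tested; this was decided with the data seen, and no member was among them. Genes (or transcripts) with a mean of at least 1 FPKM were fitted as log2(FPKM + 1) with limma 3.58.1 in R 4.3.3 (intensity trend, two-sided, Benjamini-Hochberg adjustment over all genes or transcripts tested). The limma fit was tested on simulated data. Exact permutation tests used SciPy 1.17.1. Same-numbered libraries deviated together, weakly, from their group means (r = 0.257, 0.111 and 0.182 for numbers 3, 5 and 8 over genes). The numbers in the titles may therefore pair them, which the labels do not state. The main fit and the permutation tests treated the libraries as unpaired, and the smallest exact permutation p of 0.1 holds only for that. A fit with the number as a block is given where it changes the call of a member or of a gene named from the pathway lists. Other alternatives were pseudocounts of 0.1 and 5, no filter, 3 other scalings, array weights and each library left out. Leaving out both libraries of a number was added after seeing the data.

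The named genes were all 10 members, the 3 largest changes past the threshold in each list, the 3 most like Areg, neighbours within 500 kb of Areg or Ereg, and Csf1, Epgn, Nrg1, Nrg4, Erbb4, Adam10, Adam17 and Rhbdf2. One gene that this rule names is not reported here. The members and lists were chosen with earlier results of these data known.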

Additional observations from a re-analysis of the deposited data

How the results depend on the processing

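Across 17 alternatives, between 5 and 8 of the 10 genes rose and none fell, while between 1519 and 3277 of all genes were called higher. The 8 came with array weights, the setting that also called 3277 genes higher. Tgfa, Areg, Btc, Egfr and Errfi1 passed in all 17, Hbegf in 10 and Erbb2 in 8. The log2 change of Egf ran from -0.332 to 0.0592 with single libraries left out, positive only without CSF1 library 8, and was 0.18 without both libraries numbered 8. Over all tested genes the median was -0.16 with quantile normalization and -0.00898 with median-ratio scaling. Over all genes, the number called higher was 1694 with quantile normalization and 1519 without both libraries numbered 5. The number called lower, 818 with FPKM as deposited, was 2362 with quantile normalization, 1675 with median-ratio scaling, 1437 with FPKM rescaled outside the 5 most abundant genes, 341 without both libraries numbered 5 and 485 without both libraries numbered 8. With single libraries left out it ran from 478 (without WT library 5) to 850. Without both libraries numbered 5, 5 of the 10 genes, 4 restraint genes, 9 ERK response genes and none of the relay genes rose. With the replicate block, 2883 genes were higher and 890 lower, and 7 of the 10 genes rose. Apart from the change given for Nrg1, the block changed no call of a member or of a gene named from the pathway lists. Its effect on the markers, the chromosome 5 neighbours, the genes most like Areg and the Egfr transcripts was not looked at. With single libraries left out, the long Egfr transcript's share stayed 17.9 to 26.8 percentage points higher in CSF1. The tables give no fragment counts, so the precision of genes below 1 FPKM, such as Ereg and Epgn, is unknown.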
